A study of Rattus norvegicus with 35 samples.

Results

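The mitochondrial ribosomal proteins are the proteins that, with 2 ribosomal RNAs made inside the organelle, build the ribosome of the mitochondrion. They were taken here as every gene of the deposited table whose name starts with Mrpl (large subunit) or Mrps (small subunit) followed by a digit, with capitals or lower case accepted. This gave 76 of the 15059 genes in the table, 3 of them written in lower case (mrpl9, mrpl11 and mrpl24). By current naming 49 of the proteins belong to the large subunit, which includes Mrps18a and Mrps30 in spite of their names, and 26 to the small subunit. The remaining member, Mrps36, is now named Kgd4 and is a part of the oxoglutarate dehydrogenase complex, not of the ribosome. All 76 passed the filter on low counts, which left 14411 genes. Mrpl1, the member of fewest counts, averaged 0.503 to 0.723 CPM in estradiol, anastrozole, vehicle and sham and 1.51 to 1.68 CPM in tamoxifen, raloxifene and exemestane, and the filter, which asks for a minimum in some libraries only, may have kept it through those 3 groups.

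RNA of the hippocampus of female Sprague Dawley rats was sequenced in 35 libraries, 5 from each of 7 groups. Rats were ovariectomized or sham operated at 6 months of age, and after a washout of 2 weeks were treated for 7 days. The ovariectomized groups, labelled OVX in the records, received once-daily intraperitoneal estradiol (0.16 mg/kg), tamoxifen (3.23 mg/kg), raloxifene (9.68 mg/kg), exemestane (0.16 mg/kg), anastrozole (4.03 mg/kg) or vehicle, and the remaining group was sham operated with its ovaries in place. Tamoxifen and raloxifene are selective estrogen receptor modulators, whereas exemestane (a steroid) and anastrozole (a nonsteroidal compound) inhibit aromatase. The labels give exemestane the same dose as estradiol and a different dose to each other drug, and no drug was tested against another. Each drug was compared with vehicle, and the vehicle and estradiol groups with sham, to ask how loss of the ovaries and each endocrine treatment bear on brain gene expression.

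All of these proteins are encoded in the nucleus, made in the cytosol and imported, whereas their only messages are the few encoded by mitochondrial DNA, all for subunits of oxidative phosphorylation. The small subunit reads the message and pairs it with transfer RNA, and the large subunit joins the amino acids and threads the chain towards the inner membrane. Compared with its bacterial relative, the mammalian mitochondrial ribosome has lost ribosomal RNA and gained proteins. Of the members in the ribosome, 46 have a bacterial counterpart and 29 do not. Estrogen receptors and their relatives, the estrogen-related receptors, are known for actions on genes of mitochondrial function in several tissues, and neurons depend on oxidative phosphorylation for most of their energy.

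Library totals ran between 5578204 and 12093294 counts, with a median of 8010522. Hippocampal neuron markers were present in all libraries, from a mean of 95.4 CPM (counts scaled to equal library totals by TMM) for Rbfox3 to 1380 CPM for Syt1. Sham replicate 1 stood apart, with a summed level of 306 CPM over 7 thalamus and habenula markers, against 60.9 to 94.2 CPM in the other libraries, and with 2630 CPM over 7 hippocampal neuron markers, against 4140 to 4990 CPM. Choroid plexus markers summed to between 2.77 and 3270 CPM, and the highest library of each group was between 2080 and 3270 CPM. Oligodendrocyte and myelin markers (10, none at 0 in any library) summed to 5480 to 5840 CPM with estradiol, 4950 to 6690 with tamoxifen, 5330 to 6290 with raloxifene, 4970 to 6790 with exemestane, 5270 to 6080 with anastrozole, 6340 to 7800 with vehicle and 5040 to 8790 in sham. The estradiol, raloxifene and anastrozole groups were thus wholly below vehicle, and what part these markers have in any comparison with vehicle was not tested. The libraries also fell into 2 kinds, which no label records. The deposited normalized table differs from the counts by a factor for each gene and library, and the first component of these factors, with 72.3% of their variance, split the libraries into 15 of class B and 20 of class A. The share of counts from Rn7sl1 (RNA of the particle that targets secreted proteins) divided the 35 libraries alike at its largest gap. This share was 2.9 to 3.84% in class B and 4.47 to 6.49% in class A. Another gap, from 5.88 to 6.49% within class A, was almost as wide. Class B held 0 of 5 estradiol libraries, 3 of 5 tamoxifen libraries (replicates 3 to 5), 5 of 5 raloxifene libraries, 4 of 5 exemestane libraries (all but replicate 5), 2 of 5 anastrozole libraries (replicates 3 and 4), 1 of 5 vehicle libraries (replicate 4) and 0 of 5 sham libraries. Between raloxifene and vehicle the class and the treatment therefore nearly coincide, and between exemestane and vehicle they largely do. Each comparison is given below with and without class as a term in the model.

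Summed over all 76 members, of which Mrps36 is not part of the ribosome, the level was nearly constant across the groups. The sum was 1265 ± 17.8 CPM with estradiol, 1257 ± 34.7 with tamoxifen, 1236 ± 27.9 with raloxifene, 1229 ± 28.6 with exemestane, 1256 ± 39.9 with anastrozole, 1238 ± 25.8 with vehicle and 1236 ± 11.8 in sham (SD, n = 5 each). These sums over all members ran from 1192 to 1315 CPM in the 35 libraries, and every group overlapped every other. The large subunit summed to 819.4 ± 11.8 CPM with estradiol, 812 ± 29.2 with tamoxifen, 799.8 ± 24.5 with raloxifene, 792.6 ± 16 with exemestane, 816 ± 26.7 with anastrozole, 803.8 ± 16 with vehicle and 798 ± 6.44 in sham. Its sums with estradiol (808 to 837 CPM) were all above those in sham (790 to 805 CPM), and every other pair of groups overlapped. The small subunit summed to 434.4 ± 11.3 CPM with estradiol, 429.2 ± 7.92 with tamoxifen, 420 ± 5.43 with raloxifene, 420 ± 13.4 with exemestane, 427 ± 15.6 with anastrozole, 420.4 ± 12.1 with vehicle and 424.2 ± 8.73 in sham, and all pairs of groups overlapped. In bulk tissue, fewer cells of a type and less RNA per cell cannot be told apart, and this holds for every level given here.

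**Figure D1:**
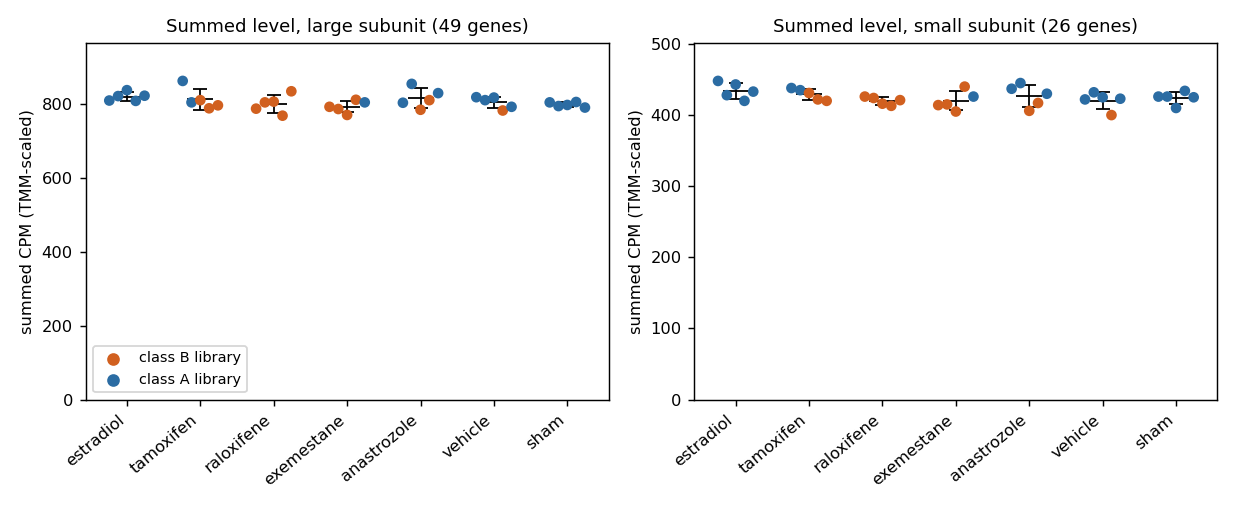
Summed CPM of the 49 large-subunit genes (left) and the 26 small-subunit genes (right) in each of the 35 libraries, by group. Points are libraries coloured by class and bars give the mean and SD of 5 libraries; the groups overlap, except that the large-subunit sums with estradiol (808 to 837 CPM) are all above those in sham (790 to 805 CPM).

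Member genes were of middling depth and varied little between libraries of a group. Their mean counts ran from 8 for Mrpl1 to 366 for Mrps2, with a median of 114 against 165 over all genes tested. The 5 members of highest mean level were Mrps2, Mrpl51, Mrpl17, Mrpl48 and Mrpl3, with 29.3 to 44.5 CPM, and the 5 of lowest were Mrpl1, Mrpl33, Mrpl22, Mrps10 and Mrpl32, with 1.01 to 7.78 CPM. Message length enters these values, so the order is one of reads and not of molecules. The biological coefficient of variation had a median of 0.0934 over members, against 0.121 over all genes tested. The SD of log2 CPM within groups had a median of 0.16 over members, against 0.20 over all genes tested.

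The steadiest members within groups were Mrpl3, Mrpl10, Mrpl15, Mrpl48 and Mrpl17, whose SD of log2 CPM was 0.09 to 0.11. Mrpl3, a large-subunit protein with a bacterial counterpart, ran from 25.9 CPM in its lowest library to 1.31 times that in its highest. The most variable members within groups were Mrpl1 (1.16), Mrpl33 (0.36), Mrpl43 (0.36), Mrps18c (0.27) and Mrpl50 (0.26) on the same scale. Mrpl1, a protein of the stalk by which spent transfer RNA leaves, had 0 counts in 5 libraries and at most 22, so its folds carry almost no information. Leaving Mrpl1 aside, the mean levels of a member in its highest and lowest group differed by 1.09 to 1.74 times, and in 36 of 75 members by less than 1.2 times.

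Some words were more frequent in promoters of the members than in those of tested genes, which the choice by name did not use. Each of these words was absent from most members. RefSeq's rat genome (GRCr8) gave a window of 300 bases, from 250 before to 50 after the gene's start, for 62 of the 76 members. The windows of 10428 genes tested here served as the comparison. The word AAGATGGC, bound by the factor YY1, occurred on either strand in 15 of 62 member windows (24.2%), against 5.26% of tested genes and 3.44% of all 27457 windows. The palindrome bound by nuclear respiratory factor 1 occurred in 4 of 62 member windows (6.45%), against 1.83% of tested genes and 0.932% of all. The word CCGGAAGT, of the ETS family that includes GABP, occurred in 7 of 62 member windows (11.3%), against 7.59% of tested genes and 4.01% of all. No difference in these shares was tested, and the words of nuclear respiratory factor 1 and ETS rest on few windows. Words of general promoters were at the usual level or lower, with CCAAT in 41.9% of member windows against 37.3% of tested genes, and GGGCGG in 48.4% against 62.6% (34.9% of all windows).

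Words of estrogen-related factors are rare in all promoters, so their absence from so few windows is uninformative. The estrogen response element palindrome was in none of the 62 member windows, against 0.00959% of tested genes. The word TCAAGGTCA of the estrogen-related receptors was also in none of the 62, against 0.269% of tested genes. Both strands were searched for every word, and a window without a match says only that these letters are not in it.

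In 12 of the 62 windows, which is 19.4% against 2.86% of tested genes, AAGATGGC lay on the gene's own strand between 10 bases before and 43 bases after the start, a range set after the positions were seen. The word contains a start codon, so it can also be the first codons of the protein. The 5 windows printed here show this layout and the other words in members named below; capitals mark the matches. Mrps18b (chr20:2842756-2843055, plus strand) carries the words of nuclear respiratory factor 1 and YY1, and Mrps7 (chr10:101342392-101342691, plus strand) and Mrpl46 (chr1:142116981-142117280, minus strand) carry that of YY1. Mrpl27 (chr10:80092095-80092394, plus strand), which was called lower with exemestane but not once class was in the model, carries the ETS word. Mrpl55 (chr10:44488003-44488302, plus strand), which had the lowest adjusted p among the 7 groups, carries TGACGTCA, a cyclic AMP response element. It was found in 1 of 62 member windows (1.61%), against 3.11% of tested genes.
Mrps18b: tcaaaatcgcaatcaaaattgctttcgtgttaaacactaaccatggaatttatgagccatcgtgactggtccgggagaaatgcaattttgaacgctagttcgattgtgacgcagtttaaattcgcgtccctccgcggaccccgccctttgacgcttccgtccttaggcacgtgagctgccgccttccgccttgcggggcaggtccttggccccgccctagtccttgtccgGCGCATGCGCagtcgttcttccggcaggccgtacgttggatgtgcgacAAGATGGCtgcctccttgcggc
Mrps7: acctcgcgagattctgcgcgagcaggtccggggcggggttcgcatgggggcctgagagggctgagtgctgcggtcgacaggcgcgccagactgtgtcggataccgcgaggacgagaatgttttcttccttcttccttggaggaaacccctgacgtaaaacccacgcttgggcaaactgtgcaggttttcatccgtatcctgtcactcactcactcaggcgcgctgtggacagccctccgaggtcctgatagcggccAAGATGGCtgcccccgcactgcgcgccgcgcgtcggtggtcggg
Mrpl46: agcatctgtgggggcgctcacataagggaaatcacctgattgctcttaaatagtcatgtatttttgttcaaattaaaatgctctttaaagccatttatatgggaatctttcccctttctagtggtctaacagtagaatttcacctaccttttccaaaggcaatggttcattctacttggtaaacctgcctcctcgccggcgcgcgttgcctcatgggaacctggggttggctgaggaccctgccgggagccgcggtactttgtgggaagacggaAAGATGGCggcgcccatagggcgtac
Mrpl27: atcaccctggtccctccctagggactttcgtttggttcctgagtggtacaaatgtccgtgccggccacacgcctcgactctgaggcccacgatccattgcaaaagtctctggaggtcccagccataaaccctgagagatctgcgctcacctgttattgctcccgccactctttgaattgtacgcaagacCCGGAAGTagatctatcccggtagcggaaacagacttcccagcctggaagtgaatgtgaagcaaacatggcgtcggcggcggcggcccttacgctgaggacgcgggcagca
Mrpl55: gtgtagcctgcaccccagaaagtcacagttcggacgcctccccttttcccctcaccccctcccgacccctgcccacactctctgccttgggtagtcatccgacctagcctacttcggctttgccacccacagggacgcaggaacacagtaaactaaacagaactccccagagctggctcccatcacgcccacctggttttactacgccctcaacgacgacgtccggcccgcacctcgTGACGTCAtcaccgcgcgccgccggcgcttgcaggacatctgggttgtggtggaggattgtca

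Many members sit back to back with another gene. A second gene started within 500 bases on the opposite strand, pointing away, for 15 of the 62 members (24.2%), against 12.9% of tested genes and 8.79% of all windows. Mrpl46 and Mrps11, of the large and the small subunit, face away from each other with starts 234 bases apart. Mrpl27 starts 44 bases from Eme1, Mrpl47 starts 244 bases from Ndufb5 (a subunit of respiratory complex I), and Mrpl49 starts 186 bases from Fau.

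With estradiol no member passed the threshold against vehicle, by edgeR's quasi-likelihood test with Benjamini-Hochberg adjustment over all genes (background 0.00694% of the 14411 genes). At an unadjusted p under 0.05 there were 6 members, all higher with estradiol (7.89%, against 9.13% of all genes), and DESeq2 found 0. Adding class to the model left 0 members past the threshold (background 0.298%), and 5 members did at an unadjusted p under 0.05 (6.58%, against 10.2% of all genes). The median log2 fold change was 0.03 over members and -0.01 over all genes tested. The 95% interval of the log2 fold change lay within 0.5 of zero in 68 of 76 members.

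The member of smallest p was Mrpl10, the base of the stalk that recruits translation factors. Mrpl10 had 28.4, 24.7, 33.7, 26.9 and 29.9 CPM with estradiol, against 23.5, 27.1, 23.9, 25.4 and 23.8 CPM with vehicle. The groups overlapped, and the log2 fold change was 0.21 ± 0.07 (SE, adjusted p = 0.384). Mrps7, which binds the head of the small-subunit RNA, had 31.9, 25.8, 27, 25.7 and 26.6 CPM with estradiol, against 23.7, 22, 24.6, 19.1 and 22.7 CPM with vehicle. Its 5 estradiol libraries were all above the 5 vehicle libraries (log2 fold change 0.29 ± 0.11, adjusted p = 0.399). Groups without overlap were seen for Mrps7 and Mrpl4, which is 2.63% of members against 3.73% of all genes tested. Mrpl55, Mrpl57, Mrps18a and Mrpl46 followed, with log2 fold changes of 0.38, 0.31, 0.21 and 0.20 and adjusted p-values of 0.448 to 0.536.

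With tamoxifen no member passed either, and no gene at all did (background 0% of the 14411 genes; edgeR). There were 10 members at an unadjusted p under 0.05, 5 higher and 5 lower (13.2%, against 16.4% of all genes), and 0 called by DESeq2. No member passed with class as a term (background 0%, edgeR), and 5 did at an unadjusted p under 0.05 (6.58%, against 8.4% of all genes). The member of smallest p was Mrpl47, a large-subunit protein near the tunnel exit, with 11.4, 11.9, 17.5, 18.8 and 16.3 CPM with tamoxifen, against 10.9, 10.1, 10.9, 11.6 and 10.6 CPM with vehicle. The 3 high tamoxifen libraries were the class B libraries of that group. Its log2 fold change was 0.49 ± 0.14 (adjusted p = 0.13), and 0.29 with class in the model (adjusted p = 0.392). Without tamoxifen replicate 2, a class A library, edgeR called Mrpl47 and Mrps22 (2.63% of members, against 4.01% of all genes in that fit). Mrps22, Mrpl49, Mrpl52, Mrps12 and Mrpl27 followed Mrpl47, with log2 fold changes of 0.33, 0.38, -0.28, -0.36 and -0.24 and adjusted p-values of 0.175 to 0.262. Groups did not overlap in 1 member, Mrps9 (1.32%, against 1.36% of all genes). The 95% interval lay within 0.5 of zero in 67 of 76 members.

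Raloxifene was the treatment with most members past the threshold, 8 of 76 (10.5%), against a background of 24.8% of all genes tested. Mrpl47, Mrps2, Mrps22, Mrps14 and Mrpl15 rose and Mrpl14, Mrps34 and Mrpl55 fell, by log2 fold changes between 0.25 and 0.52 in size. The 5 that rose are 6.58% of members, against 13.4% of all genes, and the 3 that fell are 3.95%, against 11.4%. Of the 49 large-subunit members 4 were called (8.16%) and of the 26 small-subunit members 4 (15.4%). Groups did not overlap in 4 members (5.26%), against 18% of all genes tested.

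Mrpl47 had 16.9, 12.2, 15.4, 16.7 and 16.5 CPM with raloxifene, against 10.9, 10.1, 10.9, 11.6 and 10.6 CPM with vehicle. All raloxifene libraries were above all vehicle libraries, and the log2 fold change was 0.52 ± 0.14 (adjusted p = 0.0131). Mrps2, a small-subunit protein with a bacterial counterpart, had 52.7, 48.7, 54.1, 45.1 and 49.6 CPM with raloxifene, against 42.4, 42.8, 45.2, 37.6 and 39 CPM with vehicle. The lowest raloxifene library fell just under the highest vehicle library, and the log2 fold change was 0.27 ± 0.07 (adjusted p = 0.0136). Mrps22, a mitochondrion-specific protein of the small subunit linked to inherited disease in humans, had 17.2, 19.9, 16.4, 17.4 and 19.7 CPM with raloxifene, against 11, 15.4, 12.2, 15.7 and 15.6 CPM with vehicle. The groups did not overlap (log2 fold change 0.37 ± 0.10, adjusted p = 0.0153).

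Mrps14, which sits in the head of the small subunit, had 23, 18.6, 19.2, 22.5 and 25.9 CPM with raloxifene, against 18.7, 15.4, 13.2, 18.1 and 15.3 CPM with vehicle. Only the lowest raloxifene library overlapped the vehicle range, by a single vehicle library (log2 fold change 0.44 ± 0.12, adjusted p = 0.0154). Mrpl15 had 31.8, 29.1, 31.3, 29.4 and 36.8 CPM with raloxifene, against 25.6, 27.3, 26.3, 25.9 and 28 CPM with vehicle. The groups did not overlap (log2 fold change 0.25 ± 0.07, adjusted p = 0.018).

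Among the members that fell, Mrpl14, which faces the small subunit and is a docking site for an assembly factor, had 6.37, 7.03, 6.15, 7.22 and 6.64 CPM with raloxifene, against 8.95, 8.89, 10.5, 8.87 and 8.79 CPM with vehicle. Every raloxifene library was below every vehicle library (log2 fold change -0.46 ± 0.13, adjusted p = 0.0139). Mrps34, which steadies the small-subunit RNA, had 14.6, 16.3, 16, 15 and 12.5 CPM with raloxifene, against 23.1, 22.7, 21.7, 14.9 and 19.1 CPM with vehicle. The vehicle library at 14.9 CPM, inside the raloxifene range, was replicate 4, the class B library of that group (log2 fold change -0.45 ± 0.14, adjusted p = 0.0223). Mrpl55 had 6.57, 5.9, 6.85, 7.78 and 8.89 CPM with raloxifene, against 12, 7.98, 10.4, 8.74 and 9.01 CPM with vehicle. The highest raloxifene library was above the lowest vehicle libraries, replicates 2 and 4 (log2 fold change -0.41 ± 0.16, adjusted p = 0.0481).

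**Figure D2:**
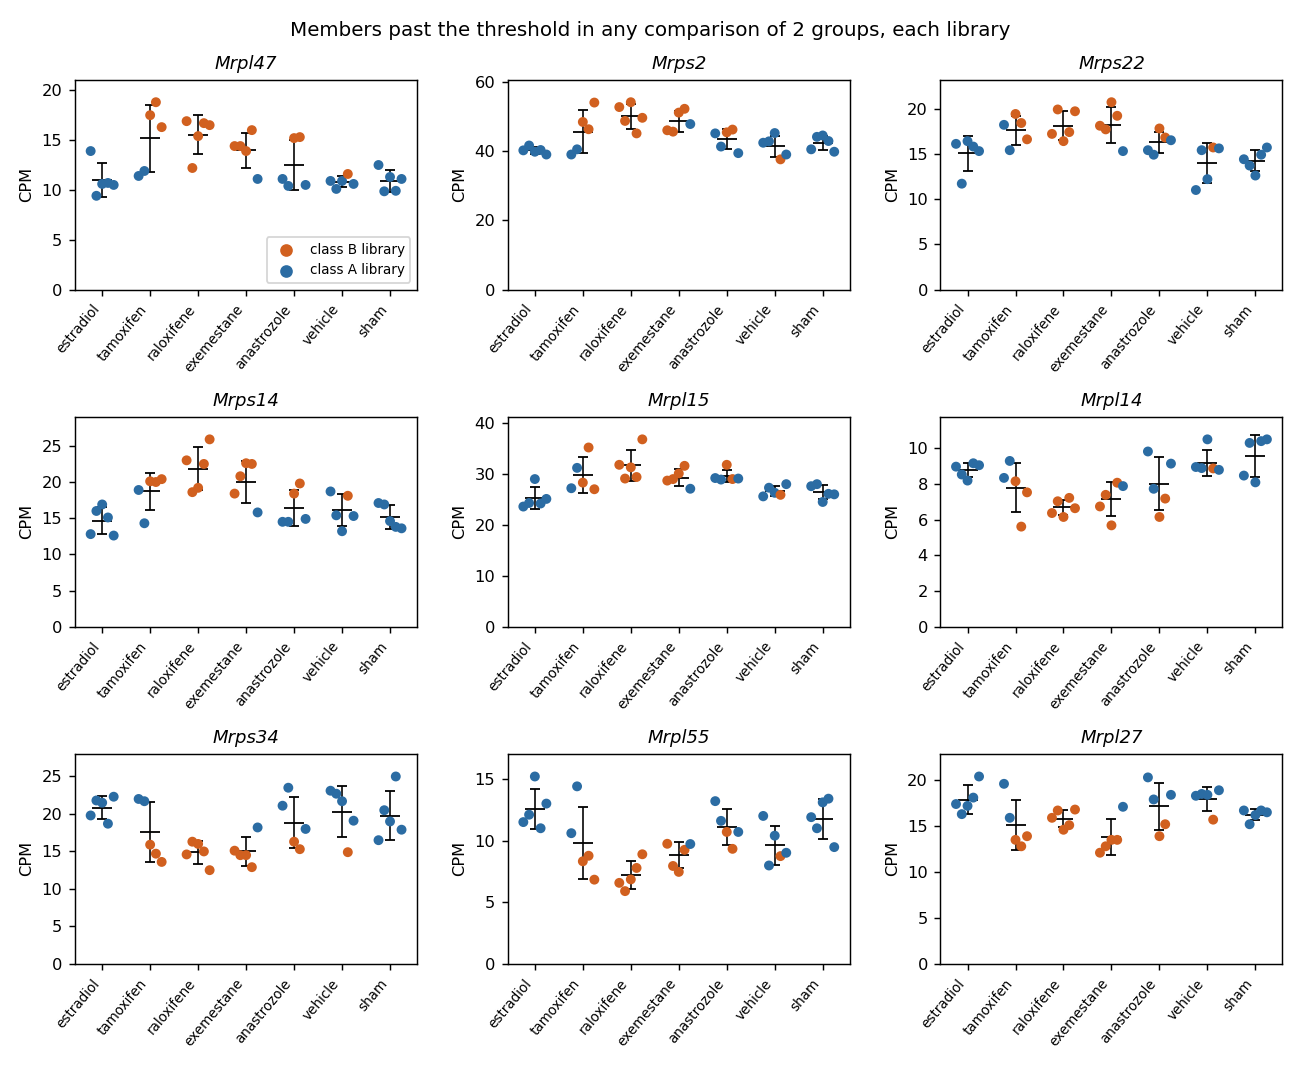
CPM of the 9 members past the threshold in any comparison of 2 groups, in each library by group. Points are libraries coloured by class and bars give the mean and SD of 5 libraries; in tamoxifen and anastrozole the class B libraries are all above the class A libraries for Mrpl47 and all below them for Mrps34.

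With class in the model, 0 members passed in raloxifene against vehicle (edgeR; background 0.00694% of all genes), and 4 did at an unadjusted p under 0.05 (5.26%, against 5.3% of all genes). The 8 log2 fold changes kept their signs but fell to between 0.06 and 0.25 in size. That of Mrpl47 was 0.17 ± 0.12 (adjusted p = 0.966) and that of Mrps34 was -0.06 ± 0.11 (adjusted p = 0.992). Mrpl15 moved least, to 0.21 ± 0.08 (adjusted p = 0.86), and Mrpl14 was -0.25 ± 0.14 (adjusted p = 0.942). Since all raloxifene libraries and a single vehicle library were of class B, this fit rests mainly on other groups, and the drug and the class cannot be told apart. With the authors' per-gene factors as offsets, Mrpl15 (0.25 ± 0.07, adjusted p = 0.045) and Mrpl30 (-0.49 ± 0.15, adjusted p = 0.0416) passed, against 5.82% of all genes. Across 10 fits that each left out a library of the 2 groups, Mrpl47, Mrps2, Mrpl14 and Mrps14 were called in all 10, Mrps22 and Mrpl15 in 9, Mrps34 in 6 and Mrpl55 in 2.

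Of the 10 oligodendrocyte and myelin markers, whose sums are given above, 0 rose and 4 fell with raloxifene against vehicle. For these and the next markers the shares over all genes were 13.4% higher and 11.4% lower. Of 8 astrocyte markers 1 rose and 2 fell, of 7 hippocampal neuron markers 2 rose and 1 fell, of 5 endothelial markers 1 rose and 0 fell, and of 8 microglia markers 0 were called. Their part in the results on the members was not tested.

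With exemestane 2 of 76 members passed against vehicle (2.63%), against a background of 6.51% of all genes tested. Mrps22 had 18.1, 17.7, 20.7, 19.2 and 15.3 CPM with exemestane, against 11, 15.4, 12.2, 15.7 and 15.6 CPM with vehicle. Mrps22 rose (1.32% of members, against 4.06% of all genes higher), and the library that overlapped the vehicle range was exemestane replicate 5, the class A library (log2 fold change 0.38 ± 0.10, adjusted p = 0.0439). Mrpl27, a protein that reaches into the peptidyl transferase centre, had 12.1, 12.8, 13.5, 13.5 and 17.1 CPM with exemestane, against 18.3, 18.5, 18.4, 15.7 and 18.9 CPM with vehicle. Mrpl27 fell (1.32% of members, against 2.45% of all genes lower), with the same exemestane library high and the class B vehicle library low (log2 fold change -0.38 ± 0.11, adjusted p = 0.045).

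Mrps2, Mrps34, Mrpl28 and Mrpl14 came next with exemestane, at log2 fold changes of 0.23, -0.43, -0.36 and -0.37 and adjusted p-values of 0.0516 to 0.0616. Mrps2 and Mrpl14 had groups that did not overlap, which is 2.63% of members against 2.99% of all genes tested. The count of 2 is not stable. It was 12 without exemestane replicate 5 (15.8%, against 28.7% of all genes in that fit), 7 without vehicle replicate 4 (9.21%, against 19.5%) and 0 without each of the other 8 libraries. It was 0 with class in the model (background 0%), where 3 members passed an unadjusted p under 0.05 (3.95%, against 6.97% of all genes). With class the log2 fold change was 0.27 (adjusted p = 0.611) for Mrps22 and -0.17 (adjusted p = 0.757) for Mrpl27. Exemestane had 4 of 5 libraries in class B and vehicle 1 of 5, so drug and class cannot be fully told apart. Of the 10 oligodendrocyte and myelin markers 0 rose and 4 fell with exemestane, of 8 microglia markers 0 rose and 2 fell (median log2 fold change -0.30), and of 5 endothelial markers 0 rose and 1 fell. Over all genes 4.06% rose and 2.45% fell with exemestane. Microglia markers summed to 147 to 177 CPM with exemestane, against 154 to 232 CPM with vehicle. The part of these markers was not tested.

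**Figure D3:**
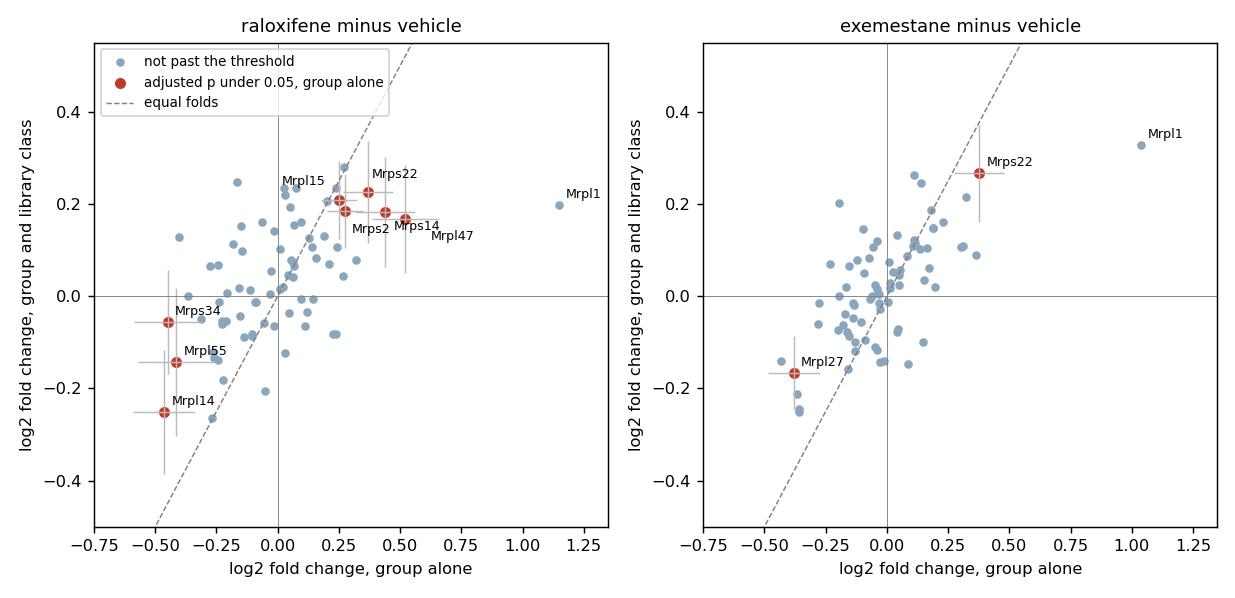
Log2 fold change against vehicle from the model with group alone (horizontal axis) and with group and library class (vertical axis) for the 76 members, in raloxifene (left) and exemestane (right). Red points passed the threshold with group alone, with SE bars, and the dashed line marks equal folds; the red points lie closer to zero on the vertical axis.

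With anastrozole no member passed and no gene did (edgeR; background 0% of the 14411 genes). There were 5 members at an unadjusted p under 0.05, all higher with anastrozole (6.58%, against 2.87% of all genes), and DESeq2 found 0. The model with class gave 0 calls as well (background 0%), and 5 did at an unadjusted p under 0.05 (6.58%, against 7.55% of all genes). Mrps35 had 15.4, 17.1, 18.1, 20.5 and 17 CPM with anastrozole, against 15.4, 13.8, 14.6, 15.1 and 16.4 CPM with vehicle. The groups overlapped (log2 fold change 0.23 ± 0.10, adjusted p = 1). Mrpl15 was at 29.2, 28.9, 31.8, 29 and 29.1 CPM with anastrozole, above all 5 vehicle libraries, at a log2 fold change of 0.15 ± 0.07 (adjusted p = 1). It was the sole member without overlap there, 1.32% of members against 0.666% of all genes. Mrpl37, Mrpl10, Mrps22 and Mrpl14 had log2 fold changes of 0.18, 0.16, 0.21 and -0.21. The 95% interval lay within 0.5 of zero in 72 of 76 members.

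The comparison of ovariectomized with intact rats gave no call. In vehicle against sham 0 members and 0 genes passed (edgeR; background 0% of the 14411 genes; DESeq2 0 members), and 3 members did at an unadjusted p under 0.05 (3.95%, against 6.81% of all genes). Once class was a term, 0 members passed (background 0.0416%), and 3 did at an unadjusted p under 0.05 (3.95%, against 10.1%). The median log2 fold change of members was 0, the interval lay within 0.5 of zero in 73 of 76, and 0 members were free of overlap (against 1.46% of all genes). Mrps28 had 7.57, 7.98, 8.74, 8.2 and 9.44 CPM with vehicle, against 10.8, 7.5, 9.31, 10.5 and 11.7 CPM in sham. The sham libraries spread on both sides of the vehicle range (log2 fold change -0.25 ± 0.11, adjusted p = 0.675). The members mrpl11, Mrpl17, Mrpl55, Mrps18a and Mrpl2 followed, with log2 fold changes of 0.23, 0.15, -0.29, -0.18 and -0.23 and adjusted p-values of 0.698 to 0.791.

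In estradiol against sham, groups made up of class A libraries alone, 0 members and 0 genes passed (edgeR; background 0%; DESeq2 0 members), and 3 members did at an unadjusted p under 0.05 (3.95%, against 5.96% of all genes). With class in the model 0 members passed (background 0%), and 5 did at an unadjusted p under 0.05 (6.58%, against 12% of all genes). Mrpl57 had 19.9, 16.9, 19, 14.7 and 12.9 CPM with estradiol, against 11.1, 16.2, 11.9, 13.1 and 13.3 CPM in sham. The groups overlapped (log2 fold change 0.35 ± 0.14, adjusted p = 0.783). Mrps36, Mrpl36, Mrpl20, Mrps7 and Mrpl58 followed, with log2 fold changes of -0.28, -0.29, 0.20, 0.20 and 0.17 and adjusted p-values of 0.836 to 0.897. In this comparison 70 of 76 intervals lay within 0.5 of zero, and no member's groups were free of overlap (0%, against 1.55% of all genes). Without sham replicate 1, 0 members passed in either comparison with sham.

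**Figure D4:**
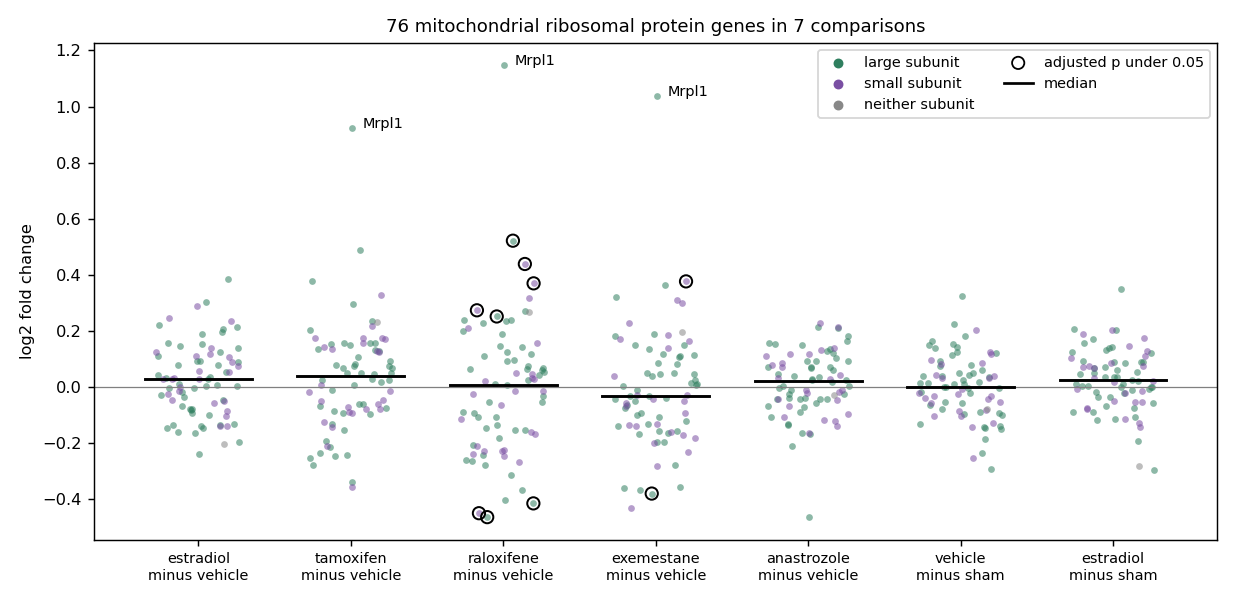
Log2 fold change of each of the 76 members in 7 comparisons of 2 groups, coloured by subunit, with members past the threshold circled and the median as a bar. Medians lie between -0.03 and 0.04 in all comparisons, and circles appear in raloxifene (8) and exemestane (2); the outlying point is Mrpl1, of few counts.

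In the test across groups, 14 of 76 members (18.4%) differed among any of the 7, against a background of 37.0% of all genes tested. They were, from the smallest p, Mrpl55, Mrps14, Mrpl47, Mrps7, Mrps2, Mrpl15, Mrps22, Mrpl14, Mrps34, Mrpl57, Mrpl12, Mrpl27, Mrps36 and Mrpl51. Estradiol and raloxifene stood at the ends for most. In 5 of the 14 estradiol had the highest mean and raloxifene the lowest, and in 5 raloxifene had the highest and estradiol the lowest. Class B held 0 of 5 estradiol and 5 of 5 raloxifene libraries, so drug and class cannot be told apart here. The share of all genes with this pattern was not computed, so it is not a result about the members. Mrpl55 averaged 12.5 CPM with estradiol, 9.8 with tamoxifen, 7.2 with raloxifene, 8.82 with exemestane, 11.1 with anastrozole, 9.62 with vehicle and 11.8 in sham (adjusted p = 0.00199, edgeR). Mrps7 averaged 27.4 CPM with estradiol, 21 with tamoxifen, 19.1 with raloxifene, 19.5 with exemestane, 22.1 with anastrozole, 22.4 with vehicle and 23.8 in sham (adjusted p = 0.00341, edgeR). With class in the model 0 members passed (edgeR; 1 at an unadjusted p under 0.05; background 0.0278%), and with the authors' factors Mrpl55, Mrpl15 and Mrps7 did, against 18% of all genes.

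More members passed the threshold between the library classes than in any comparison of a treatment with vehicle. The class comparison drew on libraries of several groups, and each treatment comparison only on that treatment and vehicle. Their power therefore differs, and the counts do not say whether class or treatment bears more on the members. The class was also made from these same counts and the normalized table. The adjusted p-values between classes are therefore not those of a class fixed beforehand. Between class B and class A, with group in the model, 34 of 76 members passed (44.7%), against a background of 51.9% of all genes tested, 12 higher in class B (25.5% of all genes were higher) and 22 lower (26.3%). Of the 49 large-subunit members 7 were higher and 11 lower, of the 26 small-subunit members 4 were higher and 11 lower, and Mrps36 was higher. Mrpl43, a mitochondrion-specific protein of the large subunit, averaged 13.5 ± 3.16 CPM in class B and 19.5 ± 2.7 CPM in class A (SD, n = 15 and 20), with a log2 fold change of -0.63 ± 0.13 (adjusted p = 0.00014, edgeR). Mrps24, Mrps34, Mrpl38, Mrpl34, Mrps12, Mrpl2 and Mrpl27 were the next lowest, with log2 fold changes of -0.50 to -0.36. The largest rises were those of Mrpl47 (0.44), Mrpl50 (0.42), Mrpl32 (0.38), Mrps14 (0.32), Mrps18c (0.32), Mrps36 (0.28), Mrpl40 (0.23) and Mrpl13 (0.19). The summed level of members was 1230 ± 25.5 CPM in class B and 1257 ± 25.4 CPM in class A.

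The folds by class ran with the authors' own factors. The classes were made from these same factors, so the match below was partly built in and is no independent support. Across the 75 members with a factor, the log2 fold change of the counts and the log2 difference of the factor between class B and class A had a Pearson r of 0.804, and 0.803 across 14051 genes, as a description across genes that share libraries. The signs matched in 33 of the 34 members called, and Mrps21 was the exception (log2 fold change 0.17, factor difference -0.17). The factors removed part of the difference. With them as offsets the median size of the log2 fold change fell to 0.10, against 0.17 without, and 9 members still differed by class, 2 higher (13% of all genes) and 7 lower (14.7%), against 27.8% of all genes in either direction. These were Mrpl27, Mrps24, Mrpl38, Mrpl43, Mrps18a and Mrps25, all lower, Mrps15, which was not among the 34, and Mrpl51 and Mrps21, both higher. Among those of the 34 members with a promoter window, its median GC content was 56.7% in 9 higher in class B and 57.3% in 17 lower in class B. Most of the window lies before the gene's start, so it does not give the GC content of the messages.

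**Figure D5:**
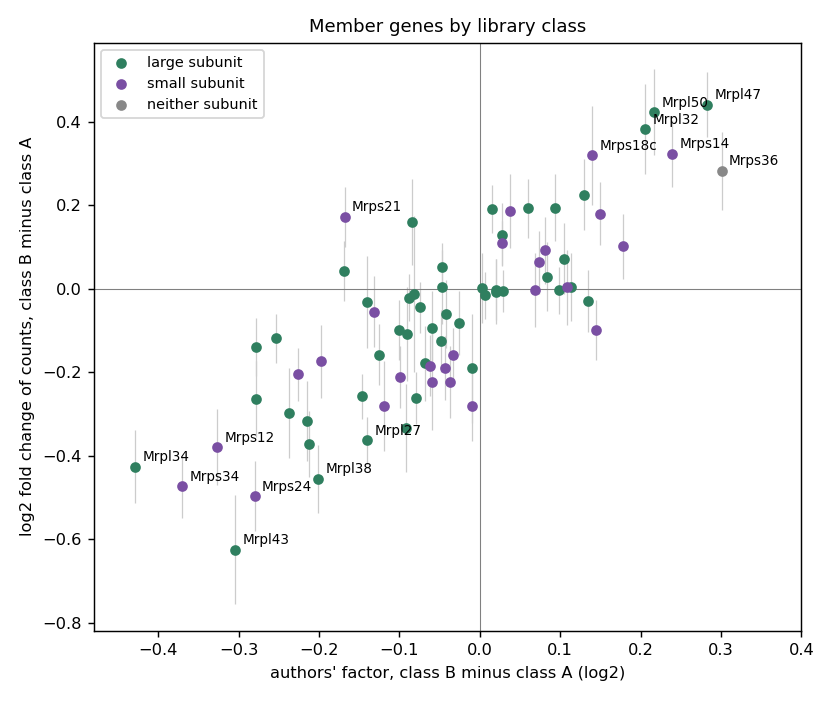
Log2 fold change of counts between class B and class A (vertical axis, with SE) against the log2 difference of the authors' per-gene factor between the same classes (horizontal axis) for 75 members, coloured by subunit. Points run from Mrpl34 and Mrpl43 at the lower left to Mrpl47 at the upper right.

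Some members are known for a particular role. Mrpl12, the stalk protein that meets translation factors and is reported to bind the mitochondrial RNA polymerase, averaged 31.1 CPM with estradiol, 26.6 with tamoxifen, 24.1 with raloxifene, 26.5 with exemestane, 28.8 with anastrozole, 27.9 with vehicle and 29.1 in sham (adjusted p = 0.0321 among groups, 0.79 with class). Its log2 fold change against vehicle was largest in size with raloxifene, at -0.21 ± 0.09 (adjusted p = 0.0865). Mrps12, of the decoding centre, averaged 10.6 CPM with estradiol, 8.08 with tamoxifen, 8.78 with raloxifene, 8.55 with exemestane, 9.23 with anastrozole, 10.4 with vehicle and 10.4 in sham, and did not pass among groups (adjusted p = 0.0955). Mrpl58, a release factor-like hydrolase built into the large subunit, ranged between 10.6 CPM with raloxifene and 13.3 CPM with estradiol (adjusted p = 0.0714).

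Among the other members followed by role, Mrpl44, related to ribonuclease III, ranged between 15 and 16.9 CPM over group means, and Mrpl41, also described as a cell death factor, between 16.2 and 18.5 CPM. Mrps27, a pentatricopeptide repeat protein, ranged between 17.3 and 20.4 CPM, Mrps30 between 21.9 and 24.5 CPM, Mrpl3 between 27.4 and 31.1 CPM, Mrps16 between 11.4 and 13.1 CPM and Mrps28 between 8.39 and 9.95 CPM. None of these 7 passed among groups (adjusted p = 0.111 to 0.638). The 3 paralogs of bacterial S18 occupy different places: Mrps18c is the counterpart in the small subunit, Mrps18b lies elsewhere in it, and Mrps18a is in the large subunit. Mrps18a averaged 21.1 CPM with raloxifene and 20.7 CPM with vehicle, Mrps18b 15.3 CPM with raloxifene and 17.7 CPM with vehicle, and Mrps18c 11.2 CPM with raloxifene and 8.98 CPM with vehicle. None of the 3 passed (adjusted p = 0.866, 0.137 and 0.142). By class the 3 moved in different directions, at log2 fold changes of -0.26 for Mrps18a, -0.19 for Mrps18b and 0.32 for Mrps18c, each past the threshold. Mrps36, outside the ribosome, averaged 11.9 CPM with estradiol, 16.5 with raloxifene and 13.7 with vehicle (adjusted p = 0.0446 among groups, 0.617 with class).

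Other parts of mitochondrial translation were set beside the members from lists drawn up with earlier results of these data known. With raloxifene against vehicle, 2 of the 4 other mitoribosomal proteins tested rose and 1 fell. Ptcd3, a small-subunit protein, averaged 43.1 ± 1.29 CPM with raloxifene and 33.7 ± 1.89 CPM with vehicle (log2 fold change 0.35 ± 0.09, adjusted p = 0.0131, edgeR). Chchd1 (0.50) rose too and Gadd45gip1 (-0.31) fell. Of 19 assembly factors 2 rose and 1 fell, among them Gtpbp10, a GTPase of large-subunit assembly, with 7.42 ± 1.3 CPM with raloxifene and 4.55 ± 1.03 CPM with vehicle (log2 fold change 0.71 ± 0.19). Fastkd2 rose by 0.51 and Mtg2 fell by 0.25 on the log2 scale.

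Of 15 translation factors 3 rose and 2 fell with raloxifene, including Guf1 (log2 fold change 0.54), Mtif2, an initiation factor (0.46), Tsfm, an elongation factor (-0.40), and Oxa1l, the inner-membrane insertase (-0.26). Of 17 mitochondrial aminoacyl-tRNA synthetases 2 rose and 1 fell, Rars2 (0.50), Nars2 (0.30) and Mars2 (-0.47). Of 16 genes of mitochondrial transcription and biogenesis 4 rose and 2 fell, including Tfb2m (0.40), Mterf1 (0.47), Polrmt, the mitochondrial RNA polymerase (-0.55), and Pprc1 (-0.26). Each of these 5 lists holds genes that moved in both directions, with 24.8% of all genes called, and with class in the model 0 of their genes were called. Their medians ran from -0.18 to 0.15, against -0.02 over all genes.

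The messages that the mitochondrial ribosome translates were the exception. Of 12 mitochondrially encoded protein genes 11 rose with raloxifene and 0 fell, with a median log2 fold change of 0.44. Over all genes 13.4% rose and 11.4% fell. Their sum was 63400 to 69500 CPM with raloxifene, against 45900 to 58800 CPM with vehicle, without overlap. Mt-nd4, a subunit of complex I, averaged 7040 ± 197 CPM with raloxifene and 4740 ± 502 CPM with vehicle (log2 fold change 0.57 ± 0.14, adjusted p = 0.0115, edgeR). The same 12 genes had a median log2 fold change of 0.40 between class B and class A, with 11 higher, and of 0.11 in raloxifene with class in the model, with 0 called. Of 71 cytosolic ribosomal protein genes 3 rose and 17 fell with raloxifene (median -0.11), against 13.4% and 11.4% of all genes. In exemestane 0 of the 71 rose and 9 fell (median -0.14), against 4.06% and 2.45% of all genes. With class 0 of them were called in either. With exemestane Rars2 (0.50), Gabpa, a subunit of GABP (0.57), and Mterf1 (0.53) rose, where 4.06% of all genes rose, and 0 genes of the other mitochondrial lists were called. With class in the model none of these 3 was called.

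With estradiol, tamoxifen and anastrozole against vehicle, and in both comparisons with sham, 0 genes of the 6 mitochondrial lists passed in edgeR. The genes of smallest p were Mt-co2 with estradiol (3140 CPM, against 3910 CPM with vehicle; log2 fold change -0.32, adjusted p = 0.361), Fastkd2 with tamoxifen (12.3 CPM, against 8.5 CPM with vehicle; 0.52, adjusted p = 0.13) and Mt-nd4l with anastrozole (509 CPM, against 607 CPM with vehicle; -0.25, adjusted p = 1). Pars2 led in vehicle against sham (6.43 CPM, against 4.97 CPM in sham; 0.37, adjusted p = 0.675) and Tsfm in estradiol against sham (9.17 CPM, against 7.61 CPM in sham; 0.27, adjusted p = 0.814).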

How the data were processed

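Poly(A) RNA of rat hippocampus was made into stranded libraries and sequenced as paired reads of 100 bp with RNA quality indicators above 7, per the labels' protocols. Salmon and DESeq2 are named in the submitters' processing notes; the annotation and genome build are not given in the sources used here. The authors deposited expected counts for each gene, already rounded and without scaling, and a second table of normalized signal, which equals the counts divided by a factor for each gene and library. Every column matched 1 library.

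The main test was the quasi-likelihood F-test of edgeR 4.0.16 (R 4.3.3), robust, with TMM factors and filterByExpr by group, in a fit of 35 libraries and 7 groups with Benjamini-Hochberg adjustment over 14411 genes and a threshold of 0.05. Standard errors come from each log2 fold change and its F value. CPM use TMM-scaled totals; log2 CPM for spreads used a prior count of 2. Library class is the sign of the first component of the centred log ratio of the deposited tables. DESeq2 1.42.0 was an alternative, as were other scalings, no filter, class as a term, the authors' factors as offsets, subsets and leaving out each library. The edgeR step was checked on simulated data. Promoters were matched by symbol to RefSeq (GRCr8) windows.

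Members, gene lists and tests were chosen with earlier results of these data known. Members named are the 8 largest rises and falls past the threshold in each comparison or the 6 of smallest p, a set named throughout for their roles, and the 5 of highest and lowest level and of largest and smallest spread; list genes named are up to 4 called in a list, or the 1 of smallest p over the 6 mitochondrial lists. Mrpl4, Mrps9, Mrps15 and Mrpl30 were named after their values were seen, as were the promoters printed. The labels give each library as a sample of its own and do not tie it to a rat, so p-values measure the spread between these libraries. Salmon divides reads among near-identical transcripts, so a member with a close copy elsewhere in the genome has a less certain count. The median member had a mean of 114 counts, where counting error alone is a coefficient of variation of 0.0936.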

Additional observations from a re-analysis of the deposited data

Results flagged for a closer look

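For 10 features a library was sought that lay far from the other 4 of its group. These were the 9 members called in a comparison of 2 groups and the summed level of all 76. Of 70 groups 8 held such a library, and chance flags about 1 in 20. With class B libraries, Mrpl15 was at 31.8 CPM in anastrozole replicate 3, against 28.9 to 29.2 CPM in the others, and Mrpl27 was at 15.7 CPM in vehicle replicate 4, against 18.3 to 18.9 CPM.

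With class A libraries, Mrpl27 was at 17.1 CPM in exemestane replicate 5, against 12.1 to 13.5 CPM in the others, and Mrps14 was at 14.3 CPM in tamoxifen replicate 2, against 18.9 to 20.4 CPM. Further values came from estradiol: Mrpl15 at 29 CPM in replicate 3 (others 23.6 to 25.1 CPM), Mrpl47 at 13.9 CPM in replicate 1 (others 9.41 to 10.7 CPM) and Mrps22 at 11.7 CPM in replicate 2 (others 15.3 to 16.4 CPM). Mrpl14 was at 10.5 CPM in vehicle replicate 3 (others 8.79 to 8.95 CPM).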

How the results depend on the processing

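No paired analysis was possible because the labels number the libraries in a single run, with no number shared between groups. None of 874 recomputed log2 fold changes reversed, for the members named by smallest p or largest fold in each comparison. That choice makes a reversal unlikely, so the count says little. Folds outside it could change sign, as for Mrpl12 in tamoxifen against vehicle (-0.07, and 0.03 with class in the model). With class as a term, the count of members called was 0 in raloxifene, 0 in exemestane and 0 among the 7 groups. With the authors' per-gene factors it was 2 in raloxifene, 0 in exemestane, 3 among groups and 9 between classes. In exemestane it was 5 with DESeq2 and 0 in a fit of the 2 groups alone. The share of all genes called in the DESeq2 fit is not given here, so the 5 is not a result about the members. Leaving out a library at a time gave 6 to 12 members in raloxifene, 0 to 12 in exemestane, 0 to 2 in tamoxifen and 9 to 21 among groups, and 0 to 0 in each of the other 4 comparisons. The 12 in raloxifene came without vehicle replicate 4 (15.8%, against 31% of all genes), the 9 among groups without estradiol replicate 1 (11.8%, against 33.5%) and the 21 without exemestane replicate 5 (27.6%, against 43%); the cause was not tested. Class B libraries alone could not be compared, since vehicle has 1 such library. Class A alone gave 0 members in each of the 5 comparisons it allowed, which had 0 in the main fit too. It left out raloxifene, with 0 class A libraries, and exemestane, with 1, so it does not bear on the members called there. Library totals without TMM gave 12 members in raloxifene (5 higher, 7 lower). The share of all genes called in that fit is not given here, so neither the count nor its direction is a result about the members. No scaling moved the median of all genes by over 0.1. Depth limits Mrpl1, with a mean of 8 counts.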
